A study of Mus musculus with 354 samples.

Results

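The genes described here are 10 genes of the Wnt pathway and of the *Lgr5* progenitor program, taken by name from the 55367 genes of the count files. They are the ligands *Wnt10a*, *Wnt5a*, *Wnt7a* and *Wnt7b*, the R-spondin receptors *Lgr5* and *Lgr6*, and the intracellular components *Axin2*, *Lef1*, *Tcf7l2* and *Ctnnb1*. All 10 were found, and all 10 had enough counts to be tested. They were measured in 354 wells, each labelled as 1 GFP+ cell, that had been sorted from the organ of Corti of P3 mouse pups. Of these, 177 were CA-ERBB2 cells. Their pups carried *TetON-CAERBB2*, a doxycycline-driven transgene for a constitutively active ERBB2 receptor, beside the *ROSA-floxed-rtTA/GFP* reporter and the Cre driver *Fgfr3-iCre*. The other 177 cells, named Control, came from littermates that had the driver and the reporter alleles but lacked the transgene. The protocol describes tamoxifen at 75 mg/kg on P0 and P1 and doxycycline at 100 mg/kg on P2 for the pups, so Cre activity, GFP and rtTA were common to both genotypes. The study describes *Fgfr3-iCre* expression as sparse, with an apical bias among hair cells, Deiters cells and Hensen cells, and each plate pooled several pups. Each genotype had 3 plates of 59 wells, and the plate was taken as the replicate because cells of 1 plate share their sort and their pups.

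Wnt ligands are secreted proteins that bind Frizzled receptors, and in the canonical branch they keep β-catenin, the product of *Ctnnb1*, from being degraded so that it can act in the nucleus with TCF and LEF factors. *Axin2* encodes a scaffold of the complex that degrades β-catenin and is itself a widely used target of the pathway. LGR5 and LGR6 bind R-spondins and thereby raise the sensitivity of a cell to Wnt. In the neonatal cochlea, *Lgr5* marks a subset of supporting cells (SCs) that can divide and form hair cells, and *Axin2* marks tympanic border cells below the sensory epithelium.

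The files gave between 1443 and 5178221 counts per cell, with a median of 2866360. Plate 1 of either genotype stood apart, with a median of 10198 genes per CA-ERBB2 cell and 8679 per Control cell against 1742 to 2954 on the other plates. Wells A12 to D12, 24 in all, stood apart as well, with a median of 15538 genes against 3244 in the other wells. The labels do not say why, and whether each of them held 1 cell was not tested. Fewer than 100000 counts were found in 2 CA-ERBB2 and 33 Control cells. *Erbb2* was at 46.0 to 120 CPM (counts per 1000000 counts of the TMM-scaled plate sum) in CA-ERBB2 and at 3.24 to 19.8 CPM in Control, so the genotypes did not overlap. All 18 SC markers were detected in both genotypes, and their summed level was 3121 to 3527 CPM in CA-ERBB2 and 2045 to 5528 CPM in Control. Markers of other cell types were present too: the 6 mesenchyme markers summed to 2922 to 3727 CPM in CA-ERBB2 and 2725 to 4249 CPM in Control, and all 6 glia markers and all 8 hair cell markers were also counted in both genotypes. The sorted wells thus held RNA of genes listed as markers of cell types other than SCs. Whether that RNA came from such cell types or from SCs was not tested. In sums over cells that may be of several types, fewer cells of a type and less RNA per cell cannot be told apart.

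The first comparison asked whether the level of the 10 genes differed between genotypes. *Wnt10a* was counted on every CA-ERBB2 plate and on no Control plate, *Lgr5* was lower on every CA-ERBB2 plate than on any Control plate, and the plates of the other 8 genes overlapped. None of the 10 passed edgeR's quasi-likelihood test on the plate sums at a Benjamini-Hochberg adjusted p under 0.05. Across all 21416 genes tested, 0.00467% passed as higher in CA-ERBB2 and 0% as lower, so the test called 1 gene in all, *Serpinb2*, which is no member. Unadjusted, 2.77% of all genes were under 0.05 as higher and 2.39% as lower; of the 10 genes, *Wnt10a* was the 1 under 0.05. Over all genes tested, the lowest CA-ERBB2 plate exceeded the highest Control plate for 4.2%, and the reverse held for 4.88%. Among the 10 genes this was 1 gene in each direction.

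**Figure D1:**
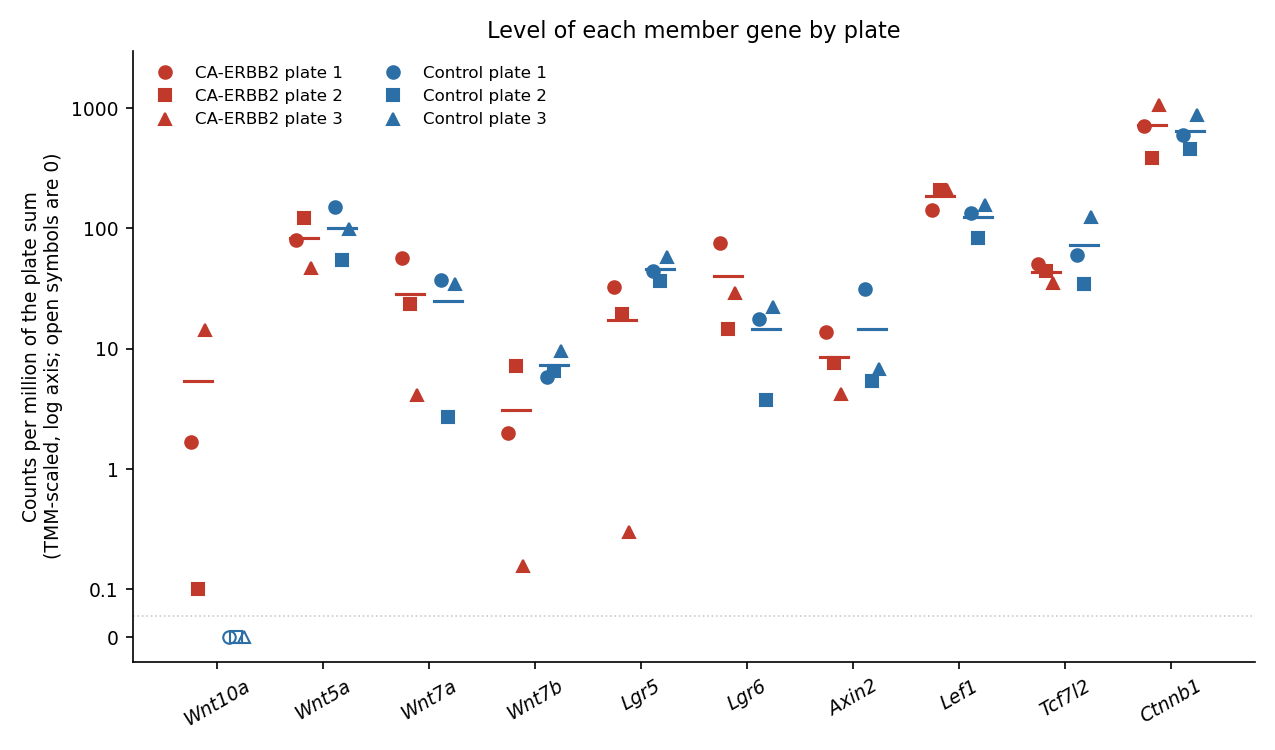
Level of each of the 10 genes in the summed counts of a plate, in TMM-scaled CPM on a log axis, with a symbol per plate, the mean of 3 plates as a bar, and open symbols for 0 counts. *Wnt10a* was at 0 on the 3 Control plates, and *Lgr5* on the CA-ERBB2 plates lay at 0.299 to 32.5 CPM, below the 36.2 to 57.4 CPM of the Control plates.

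Among the ligands, *Wnt5a*, which encodes a ligand best known for planar polarity signaling, had the most counts. Its level was 80.9, 122 and 46.8 CPM on CA-ERBB2 plates 1, 2 and 3 and 150, 54.3 and 98.6 CPM on Control plates 1, 2 and 3. The plates of the genotypes were interleaved, and the log2 fold change of CA-ERBB2 over Control was -0.28 ± 0.57 (SE, adjusted p = 0.975). *Wnt7a*, which is expressed by cochlear epithelium, was at 56.9, 23.7 and 4.15 CPM in CA-ERBB2 and at 37.3, 2.72 and 34.8 CPM in Control. The lowest plate was Control plate 2 and the highest CA-ERBB2 plate 1, and the log2 fold change was 0.18 ± 1.05 (SE, adjusted p = 0.991). *Wnt7b*, a close relative of *Wnt7a*, was at 2.00, 7.17 and 0.155 CPM in CA-ERBB2 and at 5.80, 6.59 and 9.52 CPM in Control. CA-ERBB2 plate 3 was the lowest, and the log2 fold change was -1.23 ± 1.33 (SE, adjusted p = 0.947). It was -2.77 without CA-ERBB2 plate 2, -0.65 without CA-ERBB2 plate 3 and -2.54 in cells of at least 100000 counts and under 20% mitochondrial counts.

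*Wnt10a*, a ligand of the canonical branch with roles in tooth, skin and bone, was at 1.69, 0.101 and 14.4 CPM on the CA-ERBB2 plates and at 0 on each Control plate. It had 1731 counts in CA-ERBB2 against 0 in Control. With 3 counts set in place of 0 over the Control plates, the ratio would be 614-fold. Without CA-ERBB2 plate 3 that figure was 192-fold, and without wells A12 to D12 it was 540-fold. These figures treat each read as independent, whereas all 1731 counts came from 10 cells. They cover counting error only and are no lower bounds on the difference between genotypes. The edgeR test did not call it (unadjusted p = 0.00235, adjusted p = 0.774). DESeq2, which called 1.43% of the genes it gave an adjusted p, called *Wnt10a* at an adjusted p of 0.000101, and edgeR with no filter on low counts called it at an adjusted p of 0.00873.

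*Lgr5* was at 32.5, 19.5 and 0.299 CPM on the CA-ERBB2 plates and at 43.9, 36.2 and 57.4 CPM on the Control plates, with means of 17.5 ± 16.2 and 45.9 ± 10.7 CPM (SD, n = 3). No CA-ERBB2 plate reached the lowest Control plate. However, a single cell held 48.4%, 47.7% and 43.8% of the *Lgr5* counts on Control plates 1, 2 and 3. On CA-ERBB2 plates 1, 2 and 3 the top cell held 16.5%, 30.9% and 63.0%. The plate levels of *Lgr5* thus rest on few cells. The log2 fold change of -1.39 ± 1.11 (SE) did not pass the edgeR test (adjusted p = 0.926). CA-ERBB2 plate 3 held 27 counts of the gene against 2132 or more on each other plate, and without it the log2 fold change was -0.81. *Lgr6* was at 76.4, 14.5 and 29.0 CPM in CA-ERBB2 and at 17.7, 3.72 and 22.4 CPM in Control. The values of the genotypes overlapped, with a log2 fold change of 1.45 ± 0.86 (SE, adjusted p = 0.915), and without CA-ERBB2 plate 1 it was 0.57.

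Of the intracellular components, *Ctnnb1* was at 712, 389 and 1064 CPM in CA-ERBB2 and at 595, 458 and 870 CPM in Control, a log2 fold change of 0.17 ± 0.53 (SE, adjusted p = 0.984). *Lef1*, which encodes a DNA-binding partner of β-catenin and is a target of the pathway in many tissues, was at 142, 209 and 211 CPM in CA-ERBB2 and at 134, 84.0 and 156 CPM in Control. For *Lef1* CA-ERBB2 plate 1 lay within the range of Control, and the log2 fold change was 0.58 ± 0.48 (SE, adjusted p = 0.928). *Tcf7l2*, another such partner, was at 50.4, 43.9 and 35.3 CPM in CA-ERBB2 and at 60.3, 34.5 and 126 CPM in Control. The log2 fold change of *Tcf7l2* was -0.77 ± 0.60 (SE, adjusted p = 0.926), and without Control plate 3 it was -0.11. *Axin2* was at 13.7, 7.65 and 4.24 CPM in CA-ERBB2 and at 31.5, 5.35 and 6.72 CPM in Control. Control plate 1 alone lay above all other plates for *Axin2*, and the log2 fold change was -0.77 ± 0.98 (SE, adjusted p = 0.958), turning to 0.50 without that plate.

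Per kilobase of exon, *Ctnnb1* was the highest of the 10 genes, with a median of 126 CPM per kb over the 6 plates and a range from 74.9 to 205. *Lef1* followed at a median of 16.9 CPM per kb (range 9.56 to 24.0), *Wnt5a* at 11.5, *Wnt7a* at 9.22 and *Tcf7l2* at 5.37. *Lgr5* had a median of 3.35 CPM per kb (range 0.0292 to 5.59), *Lgr6* of 2.92, *Axin2* of 1.30, *Wnt7b* of 1.26 and *Wnt10a* of 0.0204. *Ctnnb1* was separated from *Lef1* on every plate. From *Lef1* downward, the ranges over plates of neighbors in this order overlapped.

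Positions of the genes on GRCm38 are given here from Gencode M21. *Lgr5* is on the minus strand of chr10:115450311-115587780 and *Lgr6* on the minus strand of chr1:134983301-135105276. *Wnt10a* is at chr1:74791516-74804179 (plus strand), *Wnt5a* at chr14:28504750-28527448 (plus), *Wnt7a* at chr6:91363981-91411363 (minus) and *Wnt7b* at chr15:85535437-85582473 (minus). *Axin2* is at chr11:108920349-108950783, *Lef1* at chr3:131110471-131224356, *Tcf7l2* at chr19:55741820-55933654 and *Ctnnb1* at chr9:120929216-120960507, all on the plus strand. Exons of *Ctnnb1* overlap exons of *Ulk4* on the other strand. *Ulk4* had 330550 counts against 617686 of *Ctnnb1*, and 244 of the 248 cells with *Ctnnb1* held both, so the share of reads that belongs to either gene is uncertain, although the counting used strand. *AU022754*, on the other strand of *Wnt7b*, had 1182 counts against 4611.

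The second comparison asked in how many cells each gene was detected, taking 1 count as detection. *Ctnnb1* was found in 248 of 354 cells, *Tcf7l2* in 169, *Wnt5a* in 151, *Lef1* in 147, *Axin2* in 120, *Lgr5* in 110, *Lgr6* in 101, *Wnt7a* in 62, *Wnt7b* in 53 and *Wnt10a* in 10. The level behind a detection differed between genes. The median level of *Lgr5* in the cells that held it was 1.15 CPM, against 9.34 CPM for *Wnt7b*, 17.3 CPM for *Axin2*, 48.9 CPM for *Lgr6* and 124 CPM for *Wnt5a*. Of the 110 cells with *Lgr5*, 59 held 1 to 3 counts of it and 47 held at least 10 CPM, with 1 cell in both groups and 5 in neither. The same count of 1 to 3 was seen in 11 of 120 cells with *Axin2* and in 2 of 101 cells with *Lgr6*. The 59 low cells lay on all 6 plates, 28 of them in CA-ERBB2 and 31 in Control. Of the 47 high cells, 16 were in wells A12 to D12. The 47 were 15, 7 and 0 on the CA-ERBB2 plates and 12, 8 and 5 on the Control plates.

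**Figure D2:**
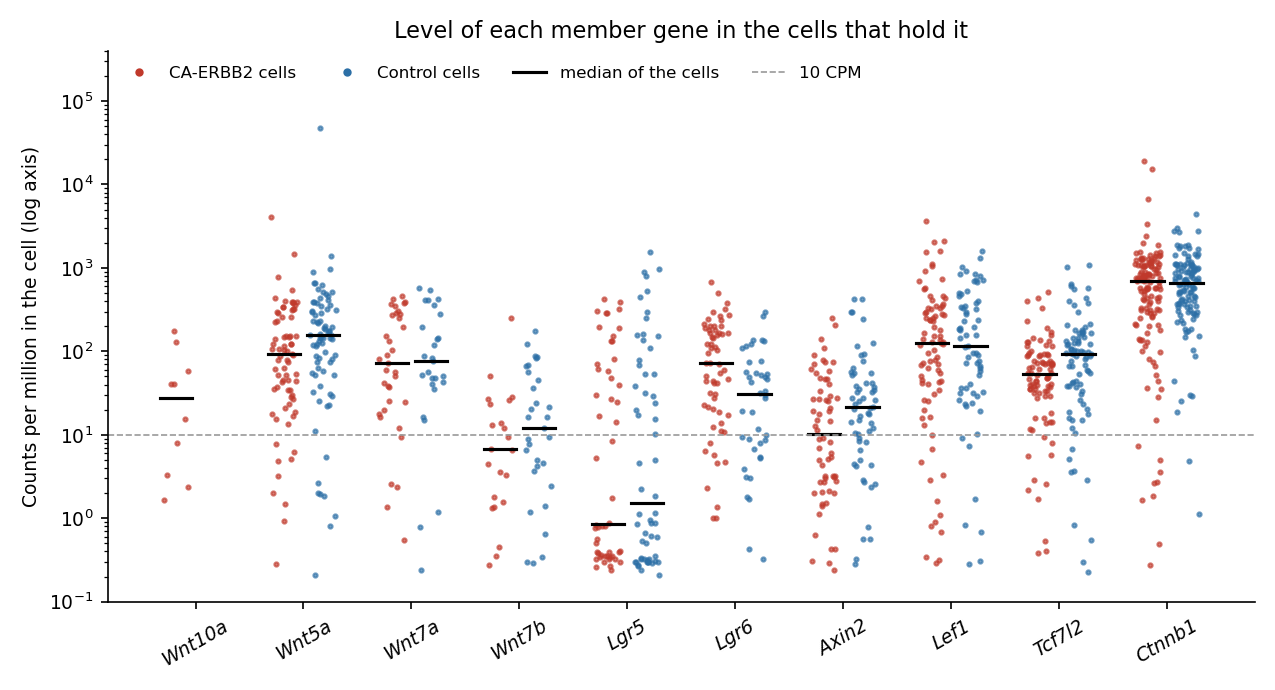
CPM of each gene in the single cells with at least 1 count of it, on a log axis, with a dot per cell and the median of each genotype as a black bar. *Lgr5* falls into 59 cells with 1 to 3 counts and 47 cells at 10 CPM or more, whereas the medians of *Wnt5a*, *Wnt7a*, *Lef1*, *Tcf7l2* and *Ctnnb1* lie above 50 CPM in both genotypes.

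High *Lgr5* cells held more of all 12 genes that were read in them than low ones, as a description without a test. *Sox2*, a transcription factor of SCs and progenitors, was at 10 CPM or more in 14 of the 59 low cells (23.7%) and in 33 of the 47 high cells (70.2%), against 33 of the 244 cells without *Lgr5* (13.5%). *Hes5*, a Notch target of SCs, was at that level in 8 low cells, 26 high cells and 19 cells without *Lgr5*. The mesenchyme genes *Tbx18* and *Pou3f4* were at that level in 40.7% and 33.9% of the low cells and in 53.2% and 51.1% of the high cells. *Wnt5a* was in 40.7% against 63.8% and *Lgr6* in 18.6% against 53.2%. The high cells also had more genes, with a median of 11485 against 3853 in the low cells and 2808 in cells without *Lgr5*, although the median totals were 3240570, 2990730 and 2516950 counts.

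The share of cells with a gene did not separate the genotypes for any gene except *Wnt10a*. It was found in 2, 1 and 7 of 59 cells on the CA-ERBB2 plates, a mean share of 5.6% ± 5.4 (SD, n = 3), and in none of the 177 Control wells. A count of 0 limits the share of wells with a *Wnt10a* count to 1.69% of the 177, or to 2.08% of the 144 with at least 100000 counts, and says nothing of expression below that detection. The two-sided exact permutation test of the 3 plate shares against 3 gave p = 0.1, the smallest p this design allows. The only *Wnt10a* cell of CA-ERBB2 plate 2 was in well D12 with 11 counts, so the plates no longer separated without wells A12 to D12 (1.82%, 0% and 7.27%) or at 10 CPM or more (1.69%, 0% and 8.47%), each with an exact p of 0.4. For the other 9 genes the exact p lay between 0.5 and 0.9. *Lgr5* was detected in 37.3%, 35.6% and 15.3% of the cells on the CA-ERBB2 plates and in 37.3%, 30.5% and 30.5% on the Control plates (exact p = 0.9). After thinning each cell to 100000 counts, which left 175 CA-ERBB2 and 144 Control cells, the shares with *Lgr5* were 27.1%, 12.1% and 1.7% in CA-ERBB2 and 20.3%, 27.8% and 12.2% in Control (exact p = 0.4).

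Plate 1 had the largest share in both genotypes for all 9 genes other than *Wnt10a*. *Axin2* was in 71.2% of the cells on CA-ERBB2 plate 1 and 66.1% on Control plate 1, against 13.6% to 20.3% on the other 4 plates. *Wnt5a* was in 76.3% and 78.0% against 23.7% to 28.8%. After thinning *Axin2* was at 44.1% and 55.9% on the plates 1 and at 6.9% to 19.4% elsewhere. *Wnt7b* was the gene with the lowest exact p after thinning other than *Wnt10a*, with 8.5%, 5.2% and 1.7% in CA-ERBB2 and 15.3%, 13.9% and 8.2% in Control (p = 0.2).

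**Figure D3:**
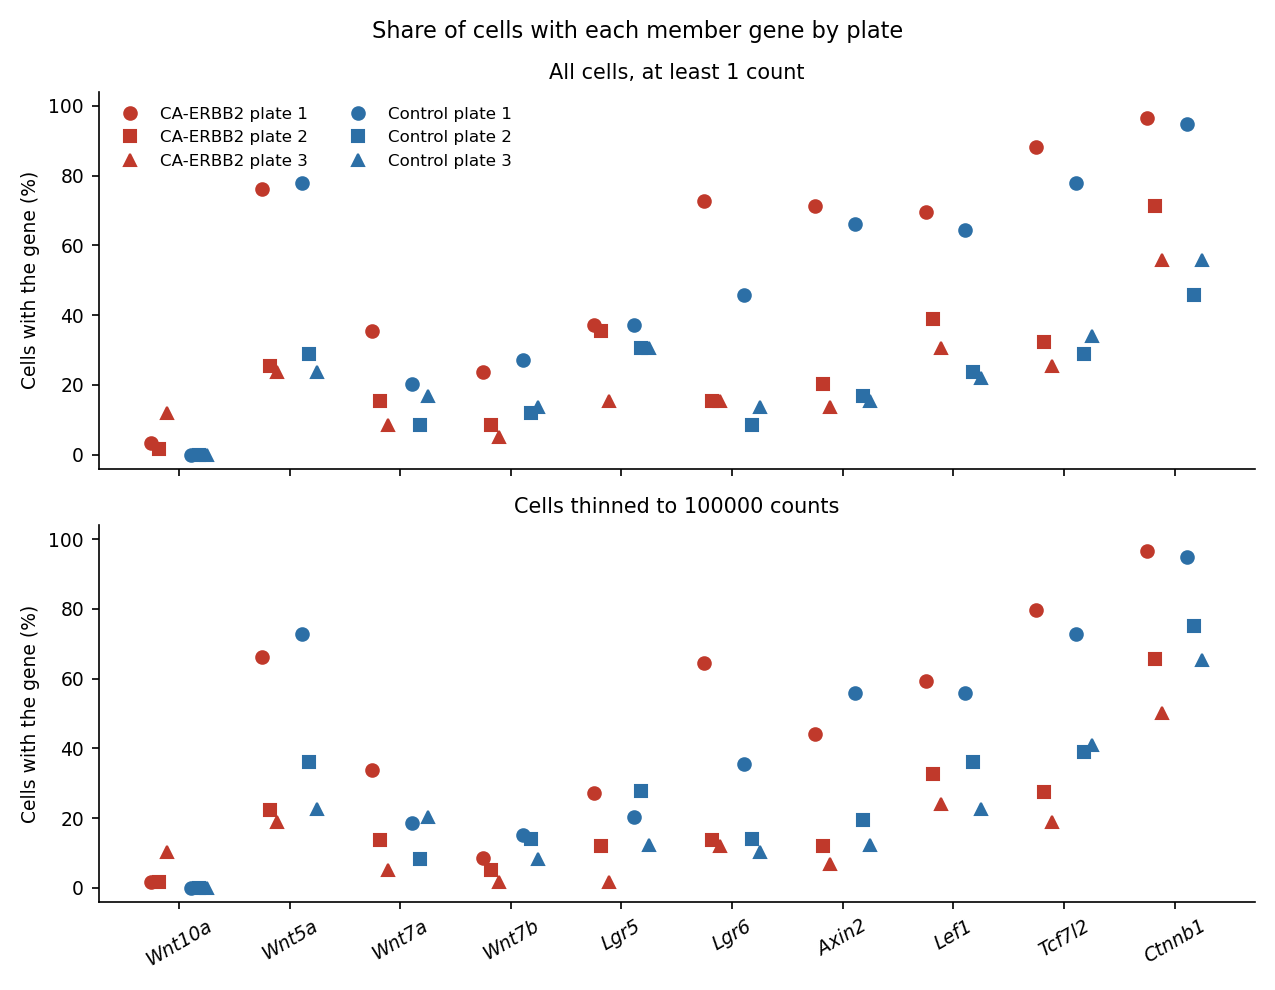
Share of cells with each gene per plate, in all cells (upper panel) and after thinning each cell to 100000 counts (lower panel). The circles of plate 1 lie above the other plates of their genotype for most genes, as for *Axin2* at 71.2% and 66.1%, while CA-ERBB2 and Control symbols are interleaved for all genes except *Wnt10a*.

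The third question was which of these genes met in 1 cell. *Lgr5* and *Axin2* were found together in 53 of 354 cells (15.0%, exact binomial 95% interval 11.4 to 19.1%, counting error only). The product of the 2 shares within each plate gave 41.5 cells, so the observed number was 1.28 times that product. By plate, 17, 6 and 2 cells held both in CA-ERBB2 and 15, 7 and 6 in Control, against products of 15.7, 4.27 and 1.22 and of 14.5, 3.05 and 2.75. Without wells A12 to D12 there were 34 cells with both among 330, 1.12 times the product of 30.5. After thinning there were 20 of 319, 1.15 times the product. At 10 CPM or more, 17 cells held both genes.

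Of the 110 cells with *Lgr5*, 82 (74.5%) also held at least 1 of the 4 ligands, and of the 120 cells with *Axin2* 109 (90.8%) did. *Lgr5*, *Axin2* and a ligand met in 47 cells (13.3%), 23 in CA-ERBB2 and 24 in Control. These became 28 cells (8.48%) without wells A12 to D12, 17 (5.33%) after thinning and 15 (4.24%) at 10 CPM or more. *Lgr5* with *Wnt7a* was seen in 38 cells, 1.82 times the product of the shares, and *Lgr5* with *Wnt7b* in 34 cells, 1.89 times. *Lgr5* with *Wnt5a* was seen in 62 cells, 1.22 times the product. For *Axin2* the ratio was 1.34 with *Wnt5a* (97 cells), 1.37 with *Wnt7a* (38 cells) and 1.48 with *Wnt7b* (36 cells). The order of the ligands by ratio was thus the same for both genes before thinning. Thinned, *Lgr5* with *Wnt7a* stood at 2.05 times the product and *Axin2* with *Wnt7a* at 0.89 times, while *Axin2* with *Wnt5a* stood at 1.41 times. *Wnt7a* and *Wnt7b* met in 30 cells, 2.68 times the product, the highest ratio among the 19 pairs counted, and in 18 cells without wells A12 to D12, 2.73 times the product. After thinning the pair met in 10 cells, 1.97 times the product, and *Lgr5* with *Wnt7b* was then the highest at 2.76 times (15 cells). The number of genes per cell varied within plates, and its part in these ratios was not tested.

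Over the 319 cells of at least 100000 counts, log2(CPM + 1) was correlated between members after centering by plate, as a description. *Wnt5a* went with *Lef1* (r = 0.42) and with *Axin2* (r = 0.38), while *Wnt7a* went against *Lef1* (r = -0.25). The correlation of *Axin2* was 0.045 with *Wnt7b* and -0.057 with *Wnt7a*. For *Axin2* the ligands were thus not in the order of the ratios before thinning. *Lgr5* went with *Wnt7b* (r = 0.40), *Tcf7l2* (r = 0.28) and *Wnt7a* (r = 0.25), and its correlation with *Axin2* was 0.11 and with *Wnt5a* 0.01. *Lgr6* went with *Wnt7a* (r = 0.35).

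The shares of cell type markers differed between the sets of cells defined by each gene. These sets overlapped, as the counts above of cells with both genes of a pair show. Cells thinned to 100000 counts were split by each gene and compared with cells of the same plates without it, leaving out wells A12 to D12. In the 41 cells with *Wnt7a*, the 18 SC markers had a median share of 84.1% against 20.5% in cells without it, and the 6 mesenchyme markers 15.9% against 50.6%. In the 109 cells with *Wnt5a*, the SC markers had a median share of 29.8% against 34.6%, and the mesenchyme markers 67.9% against 26.6%. *Axin2* followed *Wnt5a*: in its 71 cells the SC markers were at 31.7% against 34.1% and the mesenchyme markers at 73.2% against 36.1%. In the 34 cells with *Lgr5* the SC markers were at 58.8% against 26.0% and the mesenchyme markers at 32.4% against 49.2%. *Lgr6*, in 69 cells, was with both lists, SC markers at 46.4% against 26.5% and mesenchyme markers at 63.8% against 44.2%. The 8 markers of the greater epithelial ridge, the epithelium medial to the organ of Corti, were at 63.3% against 31.0% in cells with *Wnt5a*.

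With wells A12 to D12 included, the SC markers were at 68.3% in the 52 cells with *Lgr5* against 25.6% in cells without, and 4 of the 6 mesenchyme markers were higher in cells with *Lgr5*. Without those wells, 16 of 18 SC markers had a higher share in cells with *Lgr5* than in cells of the same plates without it. With them, all 18 did, as did all 8 greater epithelial ridge, all 8 hair cell, all 6 glia and all 6 bone-forming markers. Of the 6 markers of macrophages and osteoclasts, 5 did. With those wells included, *Sox2* was in 69% of cells with *Lgr5* against 23% of cells without. *Prox1*, a transcription factor of SCs, was in 54% against 15%, and *Jag1*, a Notch ligand of SCs, in 75% against 26%. *Sox10* was in 65% against 25%, and it is expressed both in glia and in the cochlear epithelium. In the 55 cells with *Wnt7a*, *Hes5* was in 78% against 5% and *Lfng*, a modifier of Notch, in 73% against 3%. In the 83 cells with *Axin2*, *Tnfrsf19*, a target of the Wnt pathway, was in 70% against 26%, and *Tbx18*, a transcription factor of otic mesenchyme, in 78% against 40%. Cells with *Lgr5* had a median of 8193 genes after thinning against 4393 in the cells without it, weighted by plate, and the part of this in the shares was not tested.

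**Figure D4:**
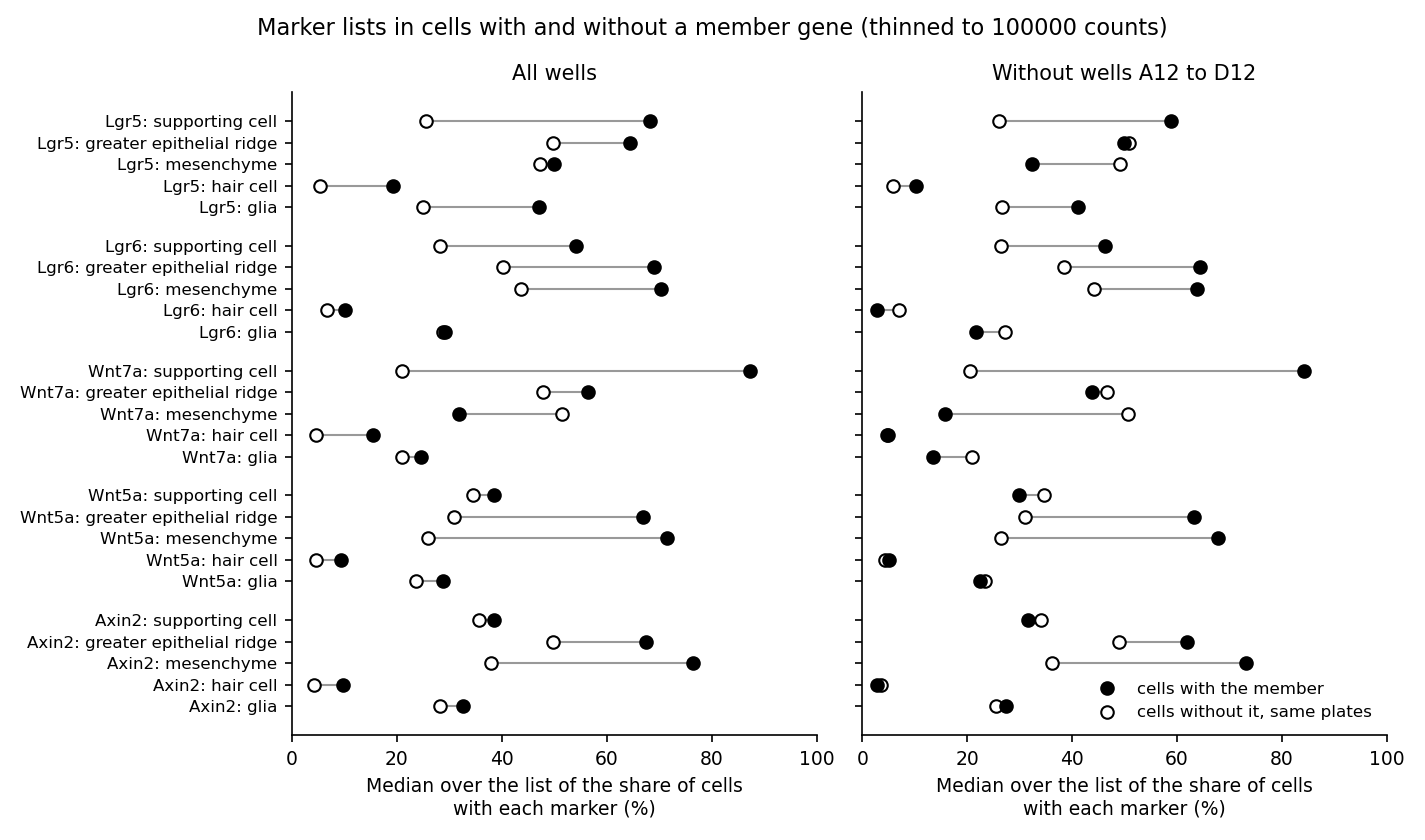
Median share of cells with the markers of a list, in cells with a gene (filled) and in cells of the same plates without it (open), over cells thinned to 100000 counts, with all wells (left) and without wells A12 to D12 (right). *Wnt7a* and *Lgr5* lie to the right for the SC list, and *Wnt5a* and *Axin2* for the mesenchyme list, as with the 84.1% against 20.5% of the SC list for *Wnt7a* on the right.

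The genes most like each member were named by the highest plate-centered correlation over the same 319 cells among 18055 genes detected in at least 20 of them. *Wnt7a* was closest to *Gm13782* (r = 0.82), *Sox21* (r = 0.81) and *Slitrk6* (r = 0.79). *Lgr5* was closest to *Erbb3* (r = 0.53), *Umodl1* (r = 0.53) and *Igfbpl1* (r = 0.52), and *Umodl1* and *Igfbpl1* were detected in only 21 and 22 of these cells. *Erbb3*, which encodes the usual partner of ERBB2 in signaling, was detected in 78. *Lef1* was closest to *Lef1os1* (r = 0.78), followed by *Cped1* and *Colec12*. *Wnt5a* was closest to *Nfix* (r = 0.57), *Arhgap28* and *Pou3f4*, the last a factor of otic mesenchyme. *Axin2* was closest to *Pbx3* (r = 0.43), *Tnfrsf19* (r = 0.42) and *Megf6*. *Wnt7b* was closest to *Llgl2* (r = 0.60), its overlapping *AU022754* (r = 0.56) and *9230102O04Rik*. *Lgr6* was closest to *Anks1b* (r = 0.57), *Tril* and *Mdm1*, and *Tcf7l2* to *Nxf1* (r = 0.58), *Etnk1* and *Ptprk*. *Ctnnb1* was closest to *Ulk4* (r = 0.97), whose exons it overlaps, and then to *Ddx5* (r = 0.60) and *Cct6a*. *Wnt10a* was in fewer than 20 cells and was not ranked.

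The 10 cells with *Wnt10a* were all in 1 genotype and are described without a test. All 10 belonged to the 36 CA-ERBB2 cells that held *Spp1*, *Timp1*, *Mmp9* and *Dmp1* at 100 CPM or more each, the genes of the osteopontin network, which the study chose on these samples. Thus *Wnt10a* was in 27.8% of these 36 cells (95% interval 14.2 to 45.2% by the exact binomial method). It was in none of the other 141 CA-ERBB2 cells. The 36 network cells lay at 3, 14 and 19 on the CA-ERBB2 plates, and no Control cell met the definition. *Wnt10a* ranged from 1.65 to 176 CPM in its cells, with a median of 27.8 CPM, under 10 CPM in 4 cells and above 100 CPM in 2. A single cell of plate 3, well A8, held 40.9% of all its counts. Of the 10 cells, 5 were in wells A12 to D12, and without these wells *Wnt10a* was in 5 of 28 network cells.

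Other members in the 10 cells were *Lef1* in 9, *Axin2* in 5 and *Lgr5* in 4. *Wls*, which encodes the carrier that Wnt proteins need for secretion, was in all 10, and *Dkk1*, a secreted inhibitor of canonical Wnt signaling, in 5. The 36 network cells lay mostly on plates 2 and 3, so their shares are set beside those of the other CA-ERBB2 cells weighted to the same plates, as a description. *Lef1* was in 26 of the 36 (72.2%) against 23.0%, after thinning in 55.6% against 20.3%, and without wells A12 to D12 in 64.3% against 21.7%. *Dkk1* was in 8 (22.2%) against 3.20%, after thinning in 16.7% against 1.35%, and without those wells in 14.3% against 2.23%. *Wnt7b* was in 7 (19.4%) against 4.38%, after thinning in 8.33% against 2.36%, and without those wells in 10.7% against 3.13%. *Wnt5a*, *Tcf7l2* and *Ctnnb1* were higher in each of these settings too. Without those wells they were at 21.4% against 21.2%, 35.7% against 26.3% and 71.4% against 59.1%. *Wnt7a* was lower in each setting, at 11.1% against 13.8% over all wells. *Axin2* was in 9 of the 36 against 19.7%, after thinning in 5.56% against 12.8%, and without those wells in 7.14% against 18.2%, so its order turned with the setting. *Lgr6* turned likewise, with 9 of the 36 against 17.4%, after thinning 13.9% against 17.1%, and without those wells 10.7% against 15.8%. *Lgr5* was in 9 of the 36 against 24.4%, after thinning in 13.9% against 5.77%, and without those wells in 10.7% against 23.4%. The 6 markers of bone-forming cells summed to 152 to 1352 CPM on the CA-ERBB2 plates and to 136 to 391.96 CPM on the Control plates, with none at 0 in either genotype. Of thinned cells, 28.6% held at least 2 of them in CA-ERBB2 and 13.9% in Control. *Phex*, a gene of bone matrix cells, was at 60.0, 352 and 172 CPM in CA-ERBB2 and at 31.4, 17.3 and 0.446 CPM in Control. *Bglap2*, an osteocalcin gene, was at 5.36, 72.3 and 135.7 CPM in CA-ERBB2 and at 0.294, 4.36 and 0.463 CPM in Control, so neither overlapped between genotypes. Over all genes tested, 4.2% were higher on every CA-ERBB2 plate. The plates overlapped for the other markers of the list, *Sp7*, *Runx2*, *Ibsp* and *Bglap*. Among these, the mean was lower in CA-ERBB2 for *Runx2* (82.4 against 87.8 CPM) and higher for the rest. *Bglap*, the near copy of *Bglap2*, was counted in 9 of the 10 cells with *Wnt10a*. All 10 are network cells, and the shares of *Bglap* and *Wls* in the other network cells are not given here. The study reports *Bglap* and *Bglap2* as up-expressed in a cluster of CA-ERBB2 cells only, and as higher by RT-qPCR in sorted CA-ERBB2 cells. The part of bone-forming cells in the *Wnt10a* counts was not tested.

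**Figure D5:**
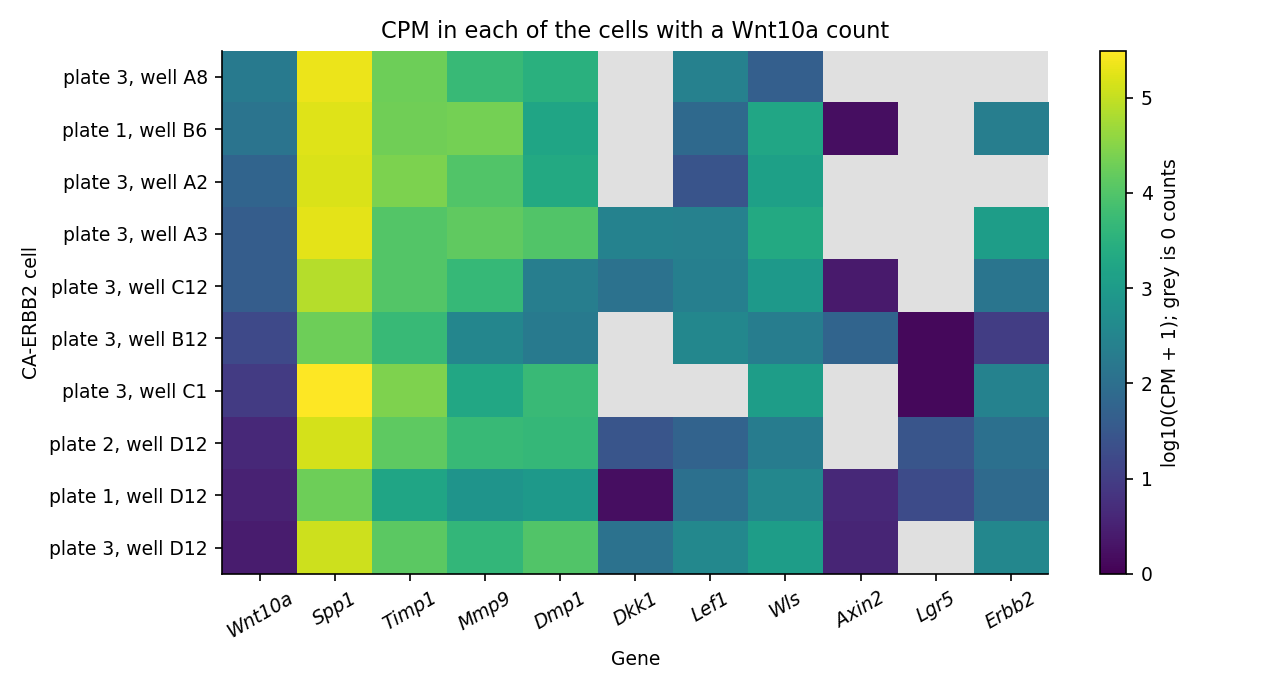
CPM of *Wnt10a*, the 4 network genes and other genes in each of the 10 CA-ERBB2 cells with a *Wnt10a* count, ordered by *Wnt10a*, as color on a log10(CPM + 1) scale with grey for 0 counts. *Spp1*, *Timp1*, *Mmp9* and *Dmp1* are high in all 10 cells, *Lef1* is present in 9, and *Dkk1*, *Axin2* and *Lgr5* are at 0 in 5, 5 and 6 of them.

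A list of 91 genes of the Wnt pathway was then read in the same fit. Of these, 88 had counts, 82 were tested and 0 passed, with 5 at an unadjusted p under 0.05 as higher (*Wnt10a*, *Wls*, *Ryk*, *Dkk1* and *Ccnd1*) and 4 as lower (*Fzd6*, *Dkk3*, *Wif1* and *Notum*), beside the 2.77% and 2.39% of all genes. The median log2 fold change of the list was -0.18, and 49 of its 82 tested genes (59.8%) were below 0, against 50.8% of all genes. The plates did not overlap for *Wnt10a*, *Ryk*, *Dkk1* and *Ccnd1*, higher in CA-ERBB2, and for *Lgr5*, *Fzd10*, *Dkk3* and *Wif1*, lower in CA-ERBB2. These 4 and 4 of 82 were near the 4.2% and 4.88% of all genes. The 5 and 4 of 82 by unadjusted p were larger shares than the 2.77% and 2.39% of all genes. Whether the list differs from all genes was not tested, so the values of single genes given next are no result about the list. DESeq2 and edgeR with no filter each called the same 2 of them, *Wnt10a* and *Dkk1*, of 86 and 88 genes tested, where 1.43% and 0.727% of all genes were called.

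Among the 19 Wnt ligands, 17 had counts. *Wnt5a* (91717 counts over all cells) and *Wnt7a* (30576) were followed by *Wnt4* (5647), *Wnt5b* (4986), *Wnt6* (4820) and *Wnt7b* (4611), and *Wnt3a* and *Wnt8a* had none. A Wnt ligand of any kind was found in 107 of 177 CA-ERBB2 and 105 of 177 Control cells, and after thinning in 94 of 175 (53.7%) and 93 of 144 (64.6%). Of the R-spondins, the secreted ligands of LGR receptors, *Rspo3* had 25450 counts, *Rspo2* 2648, *Rspo1* 2066 and *Rspo4* 46. *Rspo3* was at 21.8, 71.1 and 3.70 CPM in CA-ERBB2 and at 8.77, 77.5 and 4.81 CPM in Control, a log2 fold change of 0.08 ± 1.16 (SE, adjusted p = 0.995 by edgeR). *Lgr5* was the gene of the R-spondin branch whose plates did not overlap.

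Of the receptors, *Ryk*, a Wnt co-receptor of the tyrosine kinase family, was at 79.3, 273 and 157 CPM in CA-ERBB2 and at 54.1, 72.5 and 54.1 CPM in Control. Its log2 fold change was 1.49 ± 0.56 (SE), with an unadjusted p of 0.0221 and an adjusted p of 0.911 by edgeR. Of the secreted inhibitors, *Dkk1* was at 3.90, 0.906 and 31.4 CPM in CA-ERBB2 and at 0, 0.0084 and 0.215 CPM in Control, so its plates did not overlap (unadjusted p = 0.0087, adjusted p = 0.886 by edgeR). *Dkk1* was found in 12 CA-ERBB2 and 2 Control cells. A pair of other inhibitors, named after their values were seen, lay the other way. *Wif1*, which binds Wnt proteins outside the cell, was at 35.3, 5.48 and 9.12 CPM in CA-ERBB2 and at 102, 42.4 and 67.9 CPM in Control, with a log2 fold change of -2.09 ± 0.78 (SE, adjusted p = 0.911 by edgeR). *Dkk3*, of the same family as *Dkk1*, was at 25.7, 10.4 and 2.94 CPM in CA-ERBB2 and at 151, 31.5 and 38.7 CPM in Control, with a log2 fold change of -2.50 ± 0.91 (SE, adjusted p = 0.911 by edgeR). *Ccnd1*, the cyclin of early cell cycle progression and a target gene of the list, was at 51.3, 123 and 41.5 CPM in CA-ERBB2 and at 25.2, 29.7 and 22.3 CPM in Control. Its log2 fold change was 1.48 ± 0.60 (SE), with an adjusted p of 0.911 by edgeR. Among the secretion, cytoplasmic and nuclear genes, no gene had plates that did not overlap.

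For 6 of the 10 genes RefSeq promoters of 300 bases were at hand, 250 before and 50 after a start on GRCm38.p6, as 11 windows in all. They were read for the core of the TCF/LEF motif, CTTTGA or its reverse complement TCAAAG, since *Lef1* and *Axin2* are both known as targets of the pathway. It was in 16.0% of all 32851 such promoters and in 1 of the 11 windows, that of an internal start of *Lef1* (chr3:131156044-131156343, plus strand). The 2 matches there are shown with their flanks, 5′ to 3′ on the plus strand, with the motif in capitals.
*Lef1*, 180 bases before the start (chr3:131156103-131156130): aaaatacatggTCAAAGgaaaataggta
*Lef1*, 120 bases before the start (chr3:131156163-131156190): attgtctgttcTCAAAGtcaggtcttgc
The counts per gene do not tell which start of *Lef1* was used, so the match is a description of the sequence alone.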

How the data were processed

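Single GFP+ cells were captured in plates and their polyA RNA was made into SMART-Seq Single PLUS libraries. Per the labels and methods, the authors used bcl2fastq 2.19.1, trimmed reads, aligned them with STAR 2.7.6a to GRCm38 and counted reads over exons, by strand and gene name, with featureCounts of Subread 2.0.1, and deposited whole-number counts without normalization. The counts are of reads: the study's text speaks of UMI counts, but the counting it describes uses no molecular identifiers, so intervals cover counting error only.

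Groups were taken from the sample titles, and the number in a title was taken as the plate. Nothing in the labels says that plates came from separate litters, so p-values measure the spread between these plates. Counts were summed per plate and tested across 21416 genes with edgeR 4.0.16 (R 4.3.3; TMM factors, filterByExpr, quasi-likelihood test, Benjamini-Hochberg adjustment over all genes), and the code was tested on simulated data. CPM of a plate is per 1000000 of the TMM-scaled sum, and CPM of a cell is per 1000000 of its total. Shares were compared with exact permutation tests over plates (SciPy 1.17.1), co-detection and marker shares were described without a test. DESeq2 1.42.0, limma 3.58.1 and the other settings are under the closing heading. The 10 genes and all lists were chosen with earlier results of these data known. Named from the pathway list were, by role, the gene with the smallest unadjusted p among those whose plates did not overlap, and the ligands by counts, and for each member the 3 genes of highest correlation. *Hes5*, *Sox2*, the other markers, *Wls*, *Wif1*, *Dkk3*, *Phex*, *Bglap* and *Bglap2* were chosen after their values were seen. Gene positions came from Gencode M21 and promoters from RefSeq (GRCm38.p6). No cell was left out unless stated.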

Additional observations from a re-analysis of the deposited data

How the results depend on the processing

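*Wnt10a* was the only one of the 10 genes whose call changed, with an adjusted p of 0.000101 by DESeq2 and 0.00873 by edgeR with no filter on low counts, against 0.562 to 1.00 under the other settings in which it was tested. Both settings called 2 genes of the pathway list in place of 0, and the other 10 settings called 0. Over all genes, 1 was called higher and 0 lower, against 210 and 131 by DESeq2 and 184 and 101 with no filter. The median log2 fold change was -0.02 over the 21416 genes of the main fit. It was 0.16 over the 35980 genes of DESeq2 and 0.13 over the 39201 of edgeR with no filter, so the medians cover different genes. With DESeq2 none of the 10 genes changed direction. Leaving out 1 plate turned the log2 fold change of 4 genes. It ranged from -0.653 to 0.119 for *Wnt5a* (positive without Control plate 1 or CA-ERBB2 plate 3), from -0.852 to 0.700 for *Wnt7a* (negative without CA-ERBB2 plate 1 or Control plate 2), from -1.30 to 0.499 for *Axin2* (positive without Control plate 1) and from -0.217 to 0.479 for *Ctnnb1* (negative without CA-ERBB2 plate 3 or Control plate 2). The cause was not tested. With the plate number as a replicate block, the log2 fold change was -2.16 for *Lgr5* and 1.49 for *Lgr6*, and no gene of the pathway list was called. Same-numbered plates correlated at 0.25, 0.062 and 0.039 in their deviations from the genotype means, so the block was not taken as the main design. Plate 1 of either genotype correlated best with the other, and whether a number marks a shared sort cannot be told from the labels or from 3 correlations. Without wells A12 to D12, a setting added after the data were seen, *Wnt10a* fell below the filter and was not tested.

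The CA-ERBB2 minus Control share of cells turned from positive to negative after thinning for *Axin2* (-8.20 percentage points), *Tcf7l2* (-8.79) and *Ctnnb1* (-7.70), and at 10 CPM for *Axin2* (-5.65). Leaving out 1 plate, the difference in percentage points ranged from -18.9 to 15.5 for *Wnt5a*, -3.39 to 10.2 for *Wnt7a*, -7.35 to 3.67 for *Lgr5*, -7.35 to 23.5 for *Lgr6*, -15.8 to 18.9 for *Axin2*, -1.98 to 23.5 for *Lef1*, -18.1 to 17.2 for *Tcf7l2* and -1.98 to 23.7 for *Ctnnb1*. For each of these genes the lowest value was that without CA-ERBB2 plate 1. Of 36 values of co-detection, 33 moved by less than the SD between plates, which plate 1 widened. The exceptions were *Lgr5* with *Axin2* at 10 CPM (4.80% of cells) and *Lgr5* with any of the 4 ligands after thinning (12.9%) and at 10 CPM (11.3%).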
